A study of Mus musculus with 8 samples.

Results

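The 7 insulin-like growth factor binding protein genes of the mouse, Igfbp1 to Igfbp7, were followed in RNA of whole liver. They were taken by name, and all 7 were found among the 35976 genes of the gene tables. All 7 also passed the filter on low counts, which left 14036 genes for testing. The study compared 5 liver libraries of CTRL with 3 liver libraries of the genotype that lacks Opa1 in hepatocytes (OPA1_LKO). Every mouse of both groups received a high fat diet, so no liver of lean mice served as a reference. The product of Opa1 is a GTPase of the inner mitochondrial membrane that joins mitochondria, and the title of the study links its absence from hepatocytes to fatty liver and metabolism in obesity. The sources used here do not give strain, age or sex, the alleles carried by CTRL, or the Cre driver.

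Insulin-like growth factors IGF1 and IGF2 circulate bound to the proteins of this family, which lengthen their life in plasma and hold them away from the receptor. The liver is the main source of circulating IGF1, and hepatocytes also secrete IGFBP1, IGFBP2 and IGFBP4. Hepatic Igfbp1 is known to be repressed by insulin and raised in fasting and in amino acid shortage, and Igfbp2 is known to be low in the liver of obese mice. IGFBP3 carries most of the IGF1 of adult plasma in a complex with the acid-labile subunit, and in the rat liver it is made by cells other than hepatocytes.

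The family lay in 5 places of the genome, given here as RefSeq coordinates of build GRCm38.p6. Igfbp1 (chr11:7197787-7202546, plus strand) and Igfbp3 (chr11:7206086-7215498, minus strand) faced each other tail to tail across 3539 bases. Igfbp2 (chr1:72824480-72852474, plus strand) and Igfbp5 (chr1:72858065-72874865, minus strand) did the same across 5590 bases. Both gaps held 0 genes of the GENCODE annotation. The remaining members were Igfbp4 (chr11:99040005-99052655, plus strand), Igfbp6 (chr15:102144186-102149512, plus strand) and Igfbp7 (chr5:77349240-77408045, minus strand).

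The promoters of Igfbp1 and Igfbp2 are shown because these were the 2 members called higher in OPA1_LKO. Each sequence runs 5′ to 3′ on the strand of the gene, from 250 to 11 bases before the RefSeq start, at chr11:7197537-7197776 for Igfbp1 and chr1:72824230-72824469 for Igfbp2. RefSeq gives Igfbp2 a second start, whose window (chr1:72825137-72825376, 55.0% GC) held 0 matches to any motif searched. Capitals mark the matches to the motifs searched.
Igfbp1: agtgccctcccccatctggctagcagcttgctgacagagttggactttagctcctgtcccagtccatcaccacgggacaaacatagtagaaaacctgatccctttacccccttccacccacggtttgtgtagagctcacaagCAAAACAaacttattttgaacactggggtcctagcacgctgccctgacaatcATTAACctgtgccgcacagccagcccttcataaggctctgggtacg
Igfbp2: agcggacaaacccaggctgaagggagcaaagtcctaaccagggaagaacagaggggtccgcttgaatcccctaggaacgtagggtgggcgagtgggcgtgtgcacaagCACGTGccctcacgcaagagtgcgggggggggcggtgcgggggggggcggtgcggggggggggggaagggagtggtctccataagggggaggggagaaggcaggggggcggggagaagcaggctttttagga
The search covered both strands for 4 motifs, which were chosen with these sequences in view. In Igfbp1 the run CAAAACA, the core of the insulin response sequence that FOXO factors bind, lay at positions -108 to -102 from the start. GTTAAT, part of the site of the hepatocyte nuclear factor HNF1, lay at -56 to -51 on the other strand, and the capitals show its reverse complement. CAAAACA was present in 5.46% and GTTAAT in 6.26% of 32851 RefSeq promoter windows of the same length, and of the 7 genes each was found in Igfbp1 alone. ACGTG, the core of the hypoxia response element, was read on both strands of Igfbp2 at -142 to -137, where the 2 matches overlap in a palindrome. It was also found in Igfbp7, and 15.9% of all windows held it. TGATGNAA, the form bound by pairs of C/EBP and ATF factors, was in 0 of the 7 genes and in 3.37% of all windows. A match describes letters only. GC content was 52.5% in the Igfbp1 window and 66.7% in the Igfbp2 window shown, beside a median of 52.1%.

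The libraries held 16076404 to 20471271 estimated reads on genes. Opa1 itself averaged 48.1 ± 6.90 CPM (counts scaled to a common library total by TMM, mean ± SD, n = 5) in CTRL against 31.0 ± 5.52 CPM (n = 3) in OPA1_LKO, with every OPA1_LKO library below every CTRL library. The log2 fold change came to -0.63 ± 0.17 (SE), at a Benjamini-Hochberg adjusted p of 0.0539 in the quasi-likelihood test of edgeR. Of the 8 edgeR fits that each left out 1 library, only 1 called Opa1, that without CTRL replicate 1 (adjusted p 0.0272). The largest adjusted p among these edgeR fits was 0.236. The sources used here do not name the deleted exons, so reads from the rest of the gene may remain. CTRL replicate 1 stood apart, with Apoe at 133.8 CPM against 20759 to 33180 CPM elsewhere. Whether this library matches the other CTRL libraries in genotype or origin was not tested; without it 1701 genes were called in place of 846, and Igfbp1, Igfbp2 and Igfbp7 were called higher. Its summed level of 10 Kupffer cell and macrophage markers was 904.3 CPM, against 178.1 to 374.1 CPM in the other CTRL libraries. Hepatocyte markers matched the labelled tissue, with summed levels of 63962 to 113746 CPM in CTRL and 77095 to 98172 CPM in OPA1_LKO. Nothing in the sources used here says that each library is a separate animal, so p-values reflect only how these samples spread, and that spread may be technical. A lower level of an RNA in bulk liver cannot be told apart from fewer cells that make it.

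Of the 7 genes, Igfbp1 and Igfbp2 were called higher in OPA1_LKO, 0 were called lower, and 5 were not called at an adjusted p under 0.05 (edgeR, Benjamini-Hochberg over 14036 genes). The share called was 28.6% of the members, beside 6.03% of all genes tested in either direction (3.34% higher and 2.69% lower). At an unadjusted p under 0.05, 3 members were higher and 0 lower. This threshold was loose here: Igfbp3, at an unadjusted p of 0.0509 in edgeR, ranked 3363 by p among the 14036 genes. The same holds where it is used for gene lists below. The median log2 fold change of the 7 genes was 0.87, against -0.03 over all genes tested. In 3 members (Igfbp1, Igfbp2 and Igfbp7) the groups did not overlap in CPM, with the OPA1_LKO libraries on top. The groups were separate, in either direction, in 16.4% of all genes tested.

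Igfbp1, the small binding protein that insulin represses in hepatocytes, rose most in the family. Its level was 15.1, 3.65, 5.93, 6.65 and 19.6 CPM in CTRL replicates 1 to 5, and 83.5, 127 and 88.5 CPM in OPA1_LKO replicates 1 to 3. The lowest OPA1_LKO library was therefore well above the highest CTRL library, and the CTRL libraries were widely spread. The rise was 9.78-fold, a log2 fold change of 3.29 ± 0.46 (SE) with an adjusted p of 0.00445 (edgeR, Benjamini-Hochberg), which ranked 94 by p and 52 by rise among the 14036 genes. The call held in each of the 8 fits that left out 1 library, with adjusted p between 0.00266 and 0.0219, and in each of 9 fits with another scaling, filter, tool or model. The SD of its log2 CPM over CTRL was 0.99, larger than in 94.7% of genes tested. Igfbp1 was nevertheless a modest transcript, with 65 to 342 counts in CTRL and 1496 to 2829 in OPA1_LKO.

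Igfbp2, the second binding protein that hepatocytes release into plasma, rose from a much higher level. CTRL replicates 1 to 5 held 141, 171, 126, 487 and 397 CPM, and OPA1_LKO replicates 1 to 3 held 998, 868 and 853 CPM. CTRL replicates 4 and 5 were thus above the other CTRL libraries, while the OPA1_LKO libraries lay close together and above all of them. The mean went from 265 ± 166 to 906 ± 80.0 CPM, a 3.43-fold rise with a log2 fold change of 1.78 ± 0.43 (SE) and an adjusted p of 0.0393 (edgeR, Benjamini-Hochberg). The SD of log2 CPM was 0.90 in CTRL, larger than in 93.0% of genes, and 0.12 in OPA1_LKO, larger than in 20.6%. The call was lost without CTRL replicate 2 (adjusted p 0.0873), CTRL replicate 5 (0.0539) or OPA1_LKO replicate 1 (0.153), 2 (0.0788) or 3 (0.107) in edgeR, although the log2 fold change stayed between 1.62 and 2.14 over the 8 such fits. The 9 other fits all called it. In the fit with the replicate number as a block, CTRL replicates 4 and 5 had no OPA1_LKO library of the same number. They did not inform the group difference there, which was 2.64 on the log2 scale.

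**Figure D1:**
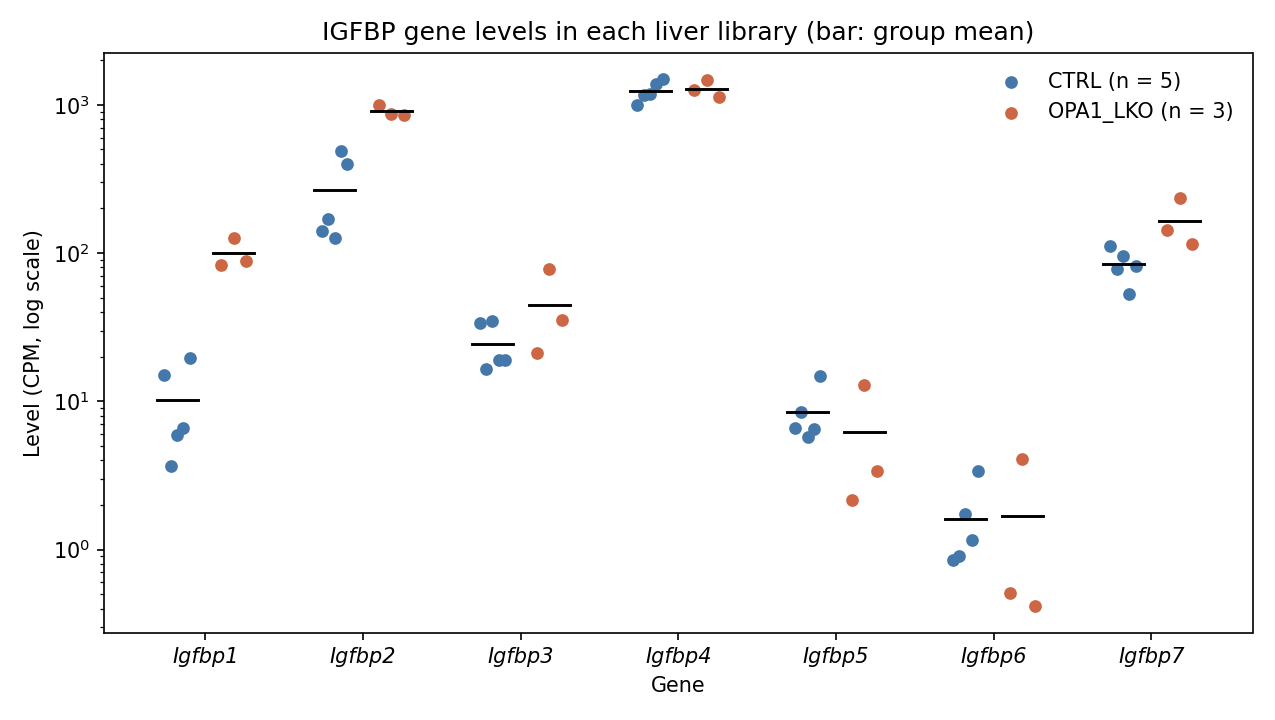
Level of each of the 7 genes in CPM (log axis) in every library, with CTRL and OPA1_LKO side by side, points for libraries and bars for group means. The 3 OPA1_LKO libraries lie above all 5 CTRL libraries for Igfbp1, Igfbp2 and Igfbp7, and overlap them for the other members.

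Igfbp4, an inhibitory binding protein that many tissues make, was the most abundant member in CTRL and showed no call. CTRL libraries held 999, 1172, 1183, 1391 and 1485 CPM, and OPA1_LKO libraries 1256, 1471 and 1127 CPM. The ranges overlapped almost fully, and OPA1_LKO differed from CTRL by 0.04 ± 0.18 (SE) in log2 fold change (adjusted p 0.906, edgeR with Benjamini-Hochberg). The SD of log2 CPM in CTRL, 0.23, was larger than in 32.6% of genes, so this was a steady transcript beside Igfbp1 and Igfbp2.

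The make-up of the family was read from TPM, a transcript abundance scaled to the same sum in each library, which corrects for transcript length and so allows levels of different genes to be compared. These sums and shares are given as descriptions. The 7 genes together held 1027, 971.3, 764.3, 1141 and 1333 TPM in CTRL and 2311, 2468 and 1791 TPM in OPA1_LKO, so every OPA1_LKO library was above every CTRL library. Without Igfbp1 and Igfbp2 the sum was 765 ± 102 TPM in CTRL and 995 ± 265 TPM in OPA1_LKO, with overlapping libraries. Igfbp4 made up 63.8% ± 6.19 of the family in CTRL and 35.1% ± 2.26 in OPA1_LKO. Igfbp2 made up 25.0% ± 9.75 and 51.2% ± 6.32. The order of the most abundant pair was therefore exchanged in each library: the ratio of Igfbp2 to Igfbp4 TPM was 0.231 to 0.692 in CTRL and 1.16 to 1.63 in OPA1_LKO. Igfbp7 held 9.08% ± 3.93 and 8.81% ± 2.72, and Igfbp1 held 0.725% ± 0.471 and 3.81% ± 0.717.

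In CTRL the order by mean TPM was Igfbp4 (660 ± 92.6), Igfbp2 (274 ± 147), Igfbp7 (91.2 ± 35.0), Igfbp3 (11.0 ± 4.72), Igfbp1 (7.91 ± 5.84), Igfbp5 (1.52 ± 0.705) and Igfbp6 (1.42 ± 0.931). Igfbp3 and Igfbp1, and Igfbp5 and Igfbp6, were neighbours that did not differ beyond their spread. In OPA1_LKO the order was Igfbp2 (1111 ± 148), Igfbp4 (772 ± 163), Igfbp7 (198 ± 87.5), Igfbp1 (84.1 ± 25.1), Igfbp3 (22.6 ± 16.1), Igfbp6 (1.76 ± 2.26) and Igfbp5 (1.27 ± 1.28). Here too Igfbp5 and Igfbp6 were not separated by their spread.

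**Figure D2:**
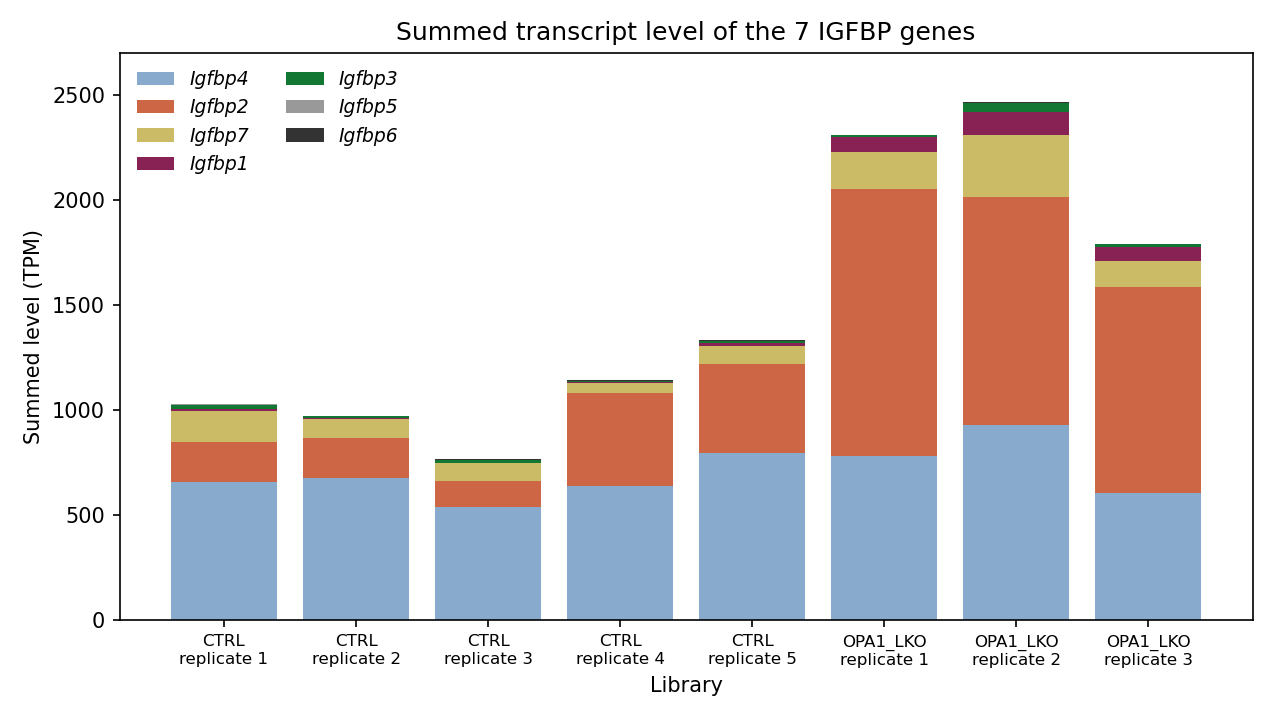
Summed TPM of the 7 genes in each library, stacked by gene, from 0. Igfbp4 is the widest band in the CTRL libraries and Igfbp2 in the OPA1_LKO libraries, and the total reaches 1791 to 2468 TPM in OPA1_LKO against 764.3 to 1333 TPM in CTRL.

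Igfbp7, a secreted protein of vessel walls and stroma that binds IGFs weakly, was higher in each OPA1_LKO library but was not called. CTRL libraries held 112, 78.4, 96.2, 52.8 and 81.2 CPM and OPA1_LKO libraries 144, 234 and 116 CPM. The groups were separate, though OPA1_LKO replicate 3 lay only just above CTRL replicate 1 and OPA1_LKO replicate 2 stood highest; in TPM the groups overlapped. Its log2 fold change reached 0.97 ± 0.27 (SE; adjusted p 0.0632 in edgeR and 0.0120 in DESeq2, Benjamini-Hochberg in both). Without OPA1_LKO replicate 2 it was 0.62 with an adjusted p of 0.190 in edgeR, and without CTRL replicate 1 it was 1.09 and called (0.0276). Of the 1209 exonic bases of Igfbp7, 85 (7.03%) are shared with Polr2b, which encodes an RNA polymerase subunit on the opposite strand. Polr2b stood at 17.3 ± 3.26 CPM over CTRL and 18.1 ± 3.76 CPM over OPA1_LKO, below Igfbp7 in each group, and the sources used here do not say whether counting used strand.

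Igfbp3, the main carrier of IGF1 in adult plasma, was read at 33.6, 16.4, 34.7, 19.0 and 18.9 CPM in the CTRL libraries, and at 21.2, 77.6 and 35.5 CPM in those of OPA1_LKO. OPA1_LKO replicate 2 stood above all other libraries, and OPA1_LKO replicate 1 lay within the CTRL range. The log2 fold change was 0.87 ± 0.39 (SE; adjusted p 0.212, edgeR with Benjamini-Hochberg), and 0.21 (0.756) without OPA1_LKO replicate 2.

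Igfbp5, which binds extracellular matrix as well as IGFs, and Igfbp6, which prefers IGF2, were scarce. The CTRL libraries had 6.59, 8.43, 5.70, 6.52 and 14.8 CPM of Igfbp5, and the OPA1_LKO libraries 2.17, 12.95 and 3.37 CPM. For Igfbp6 the CTRL libraries had 0.850, 0.899, 1.73, 1.17 and 3.38 CPM, and the OPA1_LKO libraries 0.508, 4.09 and 0.414 CPM, from 7 to 91 counts a library. In both genes OPA1_LKO replicates 1 and 3 lay below all CTRL libraries while replicate 2 lay in or above the upper CTRL range. The SD of log2 CPM over OPA1_LKO was 1.31 for Igfbp5 and 1.67 for Igfbp6, larger than in 99.4% and 99.7% of genes. The log2 fold changes were -0.44 ± 0.54 (SE; adjusted p 0.660) for Igfbp5 and 0.07 ± 0.75 (0.965) for Igfbp6 in edgeR with Benjamini-Hochberg adjustment. Without OPA1_LKO replicate 2 they were -1.61 (0.0671) and -1.78 (0.156), and neither was called.

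Markers of other liver cells were read beside these members. The summed level of 15 stellate cell and portal fibroblast markers was 279.9 to 395.3 CPM in CTRL, 435.8 and 453.4 CPM in OPA1_LKO replicates 1 and 3, and 883.3 CPM in OPA1_LKO replicate 2. Acta2, the actin of contractile stroma, was at 31.6 CPM in OPA1_LKO replicate 2 and at 1.15 and 1.72 CPM in the other OPA1_LKO libraries. Of the 15 markers 2 were called higher in edgeR, Hand2 and Eln, and 0 lower, with a median log2 fold change of 0.76. At an unadjusted p under 0.05 in edgeR 7 were higher and 0 lower, and DESeq2 called 3 higher and 0 lower. Endothelial markers summed to 177.6 to 278.9 CPM in CTRL and 191.2 to 331.1 CPM in OPA1_LKO, with 0 of 13 called in edgeR, 2 higher at an unadjusted p under 0.05, and 0 in DESeq2. Bile duct markers summed to 35.1 to 89.6 CPM and 165.6 to 220.4 CPM, and 3 of 8 tested were called higher (Krt7, Sox9 and Spp1) with a median of 0.69. Spp1 alone held 121.8 to 176.2 CPM of the OPA1_LKO sums. CTRL replicate 3 had the highest level of all libraries for Krt19 (22.3 CPM), Epcam (16.8), Cldn7 (6.32) and Cftr (3.02). Leaving out CTRL replicate 3 gave 7 calls and leaving out OPA1_LKO replicate 3 gave 1. Of 10 hepatocyte markers Tat alone was called, higher, with a median of -0.03. The Kupffer cell list had 0 of 10 called in edgeR and in DESeq2, 1 lower at an unadjusted p under 0.05, and a median of -0.44; without CTRL replicate 1, 2 were called higher and the median was 0.04. Mesothelial markers had 0 of 4 tested called by either tool or at an unadjusted p under 0.05 (median -0.80). Of 5 adipocyte markers only Cfd was tested, and was not called in edgeR (log2 fold change -2.61, lower at an unadjusted p under 0.05 and called lower in DESeq2 and without CTRL replicate 1 or OPA1_LKO replicate 2). No listed marker was at 0 in all libraries. OPA1_LKO replicate 2 had the highest sum among the OPA1_LKO libraries in each of these marker lists except that of hepatocytes. The part of cell make-up in the levels of the IGFBP genes was not tested.

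**Figure D3:**
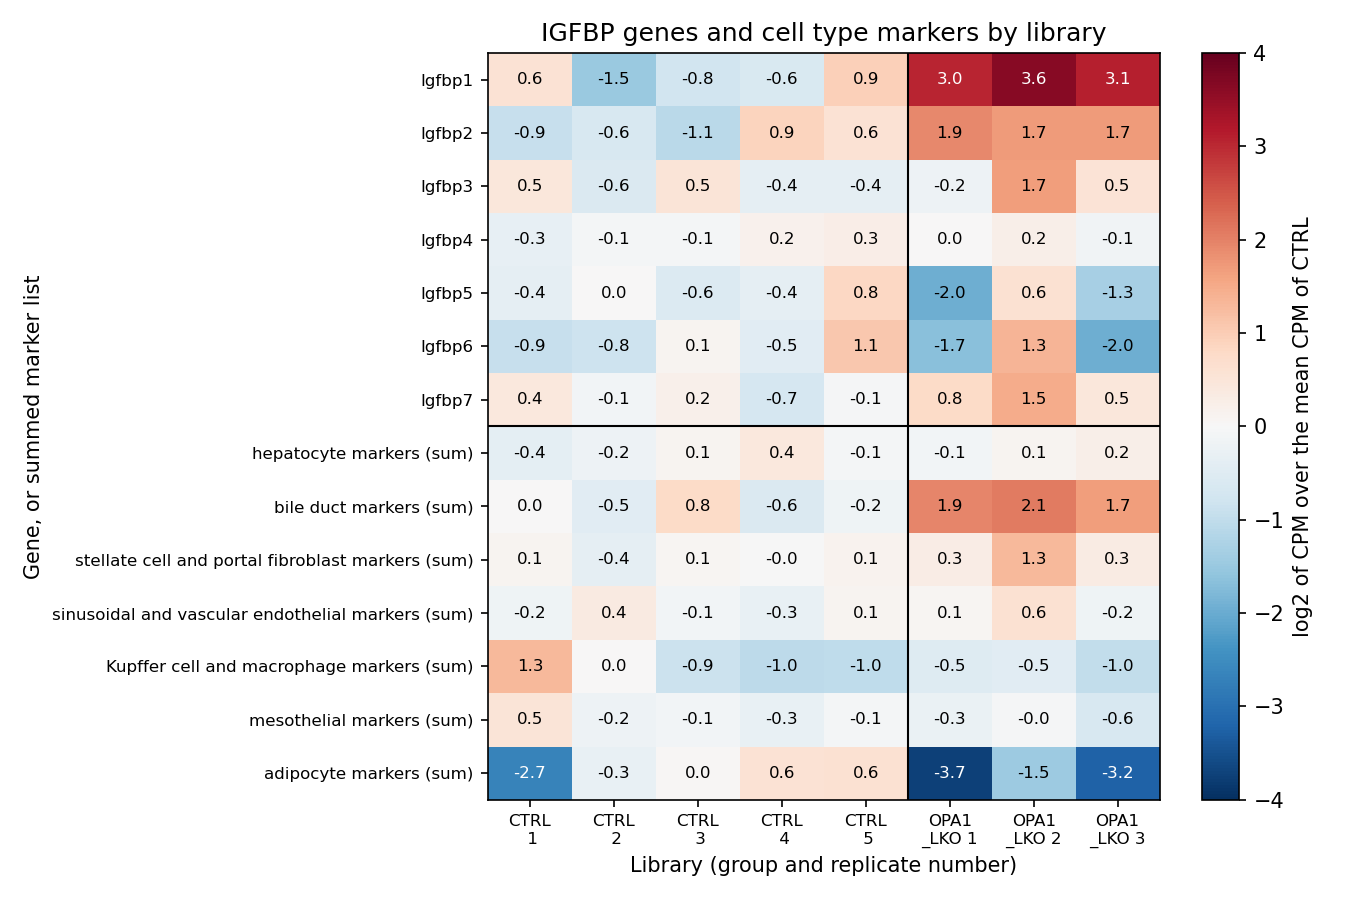
Level of each IGFBP gene and summed level of each marker list in every library, as log2 of CPM over the CTRL mean (colour scale from -4 to 4). Igfbp1 and Igfbp2 are high in all 3 OPA1_LKO libraries. Replicate 2 is the highest OPA1_LKO library for every gene and list except Igfbp2 and the hepatocyte markers. The mesothelial sum is mostly Krt8 in every library, and the bile duct sum is mostly Spp1 in the OPA1_LKO libraries.

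**Figure D4:**
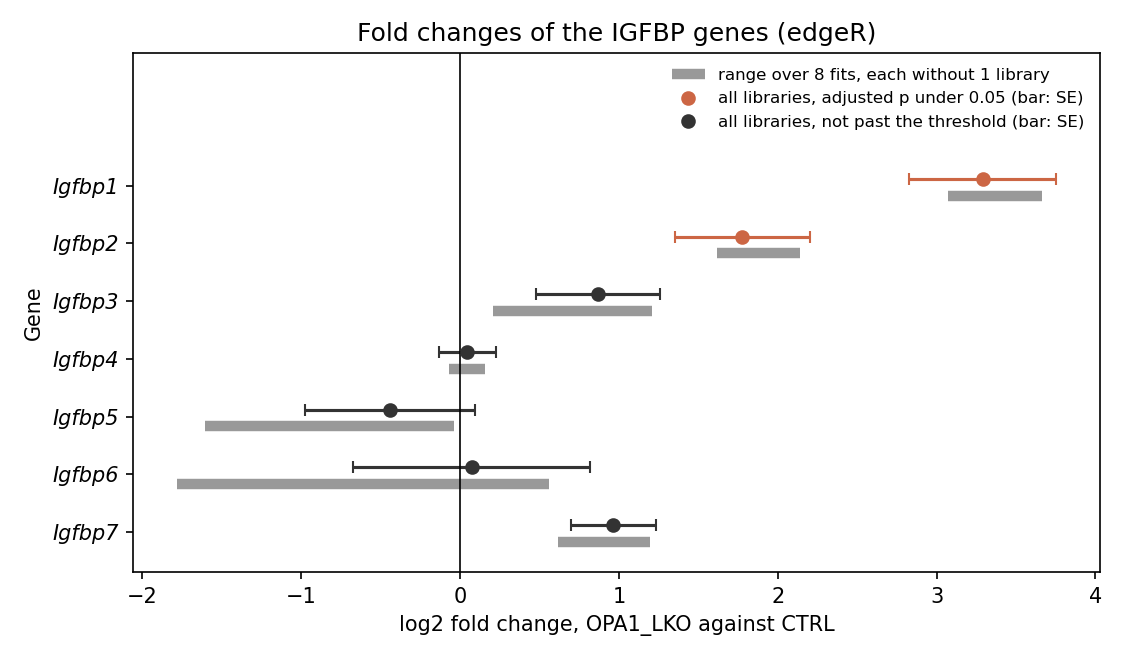
Log2 fold change of each IGFBP gene, OPA1_LKO against CTRL, with the SE as the thin bar and, as a grey bar below it, the range over the 8 fits that each leave out 1 library. Igfbp1 (3.29), Igfbp2 (1.78), Igfbp3, Igfbp5 and Igfbp7 keep their direction in every such fit, and Igfbp4 and Igfbp6 cross 0. The ranges of Igfbp5 and Igfbp6 are wide and reach down to -1.61 and -1.78.

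At the level of transcripts, Igfbp2 and Igfbp7 each had 2 transcripts of at least 0.1 TPM, so shares could be compared for 4 transcripts. The Igfbp2 transcript NM_001310659.1 held 58.1% ± 10.2 of the gene's TPM in CTRL and 60.9% ± 9.38 in OPA1_LKO (exact two-sided permutation test, p = 0.696, adjusted 0.696; the smallest p that the 56 divisions allow is 0.0179). Both Igfbp2 transcripts had a higher mean TPM, which is relative to all RNA of the library, in OPA1_LKO, with means of 152 and 673 TPM for NM_001310659.1 and 122 and 437 TPM for NM_008342.3. Igfbp7 came almost wholly from NM_008048.3, at 99.9% in CTRL and 99.8% in OPA1_LKO (exact permutation p = 0.375, adjusted 0.696).

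The ligands that these proteins carry were set beside them. Igf1, the growth hormone-driven ligand of the adult, averaged 595 ± 79.1 CPM over CTRL and 616 ± 95.1 CPM over OPA1_LKO (log2 fold change 0.05 ± 0.17, adjusted p 0.888, edgeR with Benjamini-Hochberg). The 7 IGFBP genes together held 8.68 to 16.5 TPM for each TPM of Igf1 in CTRL and 17.8 to 27.7 in OPA1_LKO. Igf2, the fetal ligand that adult mouse liver nearly silences, rose from 0.581 ± 0.569 to 4.38 ± 1.87 CPM, which is still scarce (log2 fold change 2.88 ± 0.63, adjusted p 0.0278). That call was lost without CTRL replicate 2, 4 or 5 or OPA1_LKO replicate 1 or 3 (adjusted p 0.0522 to 0.143 in edgeR). Igf2 was the 1 called of 8 tested genes in the list of ligands, receptors and complex partners, whose median log2 fold change was 0.11. Igfals, the acid-labile subunit that completes the complex of IGFBP3 and IGF1, was at 101 ± 23.5 and 71.0 ± 17.9 CPM (log2 fold change -0.51 ± 0.23, adjusted p 0.217, edgeR). The receptors Igf1r (0.86), Igf2r (0.17) and Insr (-0.30), and the adaptors Irs1 (-0.49) and Irs2 (0.94), were not called, and Insrr was below the filter.

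Proteases that cut IGFBPs had 4 of 13 tested genes called higher and 0 lower (median log2 fold change -0.03). DESeq2, which also tested genes below the filter and the inhibitors among them, called 5 higher and 1 lower of 21. Mmp7, a matrix protease known to cut IGFBP5, went from 0.0651 ± 0.0871 CPM over CTRL to 11.2 ± 3.51 CPM over OPA1_LKO (adjusted p 0.000325, edgeR with Benjamini-Hochberg). Htra3, a serine protease with an IGFBP-type domain of its own, went from 3.85 ± 1.96 to 19.98 ± 8.80 CPM (log2 fold change 2.37 ± 0.41). Ctsl, a lysosomal cysteine protease, went from 473 ± 112 to 1149 ± 308 CPM (1.28 ± 0.23), a call lost without OPA1_LKO replicate 1 (adjusted p 0.0805, edgeR). Mmp2, a gelatinase of stromal cells, rose by 1.90 ± 0.42 on the log2 scale, and this call was lost without CTRL replicate 2, 4 or 5 or OPA1_LKO replicate 2 or 3 (adjusted p 0.0607 to 0.0990, edgeR). It also missed the threshold in limma on voom values (adjusted p 0.0506) and on TPM (0.0540 to 0.132). Without CTRL replicate 1 the list had 6 higher and 1 lower, and without OPA1_LKO replicate 2 it had 3 and 0. Pappa and Pappa2, the proteases best known for cutting IGFBP4 and IGFBP5, and their inhibitors Stc1 and Stc2 were below the filter. Stc2 stood at 0.0439 ± 0.0449 CPM over CTRL and 0.965 ± 0.455 CPM over OPA1_LKO, with every OPA1_LKO library above every CTRL library. Among 8 tested relatives with an IGFBP-type domain, Htra3 and Ctgf were called higher and 0 lower, with a median of 0.68. Ctgf, a matrix-associated target of YAP, went from 5.71 ± 2.52 to 32.04 ± 18.04 CPM (log2 fold change 2.49 ± 0.42).

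Growth hormone signalling, which drives Igf1 and Igfals in hepatocytes, had 0 of 10 genes called in edgeR, 1 lower without CTRL replicate 1 or 2, and 2 lower in DESeq2. At an unadjusted p under 0.05, 5 were lower and 0 higher, and the median log2 fold change was -0.37. Cish, a feedback inhibitor that STAT5 induces, was at 16.4 ± 9.06 and 5.29 ± 1.70 CPM (log2 fold change -1.63 ± 0.47, adjusted p 0.0707, edgeR with Benjamini-Hochberg). Stat5a was at 15.7 ± 2.04 and 10.3 ± 1.78 CPM (-0.61 ± 0.17, 0.0577). Socs2, of the same list, lay in the other direction and was not called. It was at 20.1 ± 9.33 and 26.7 ± 12.7 CPM (log2 fold change 0.40 ± 0.41, adjusted p 0.591, edgeR).

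Transcription factors known to act on the Igfbp1 promoter had 1 of 15 called, lower, with a median of -0.17; DESeq2 called 0 higher and 3 lower. That factor was Foxa2, a forkhead protein of hepatocytes, which averaged 29.2 ± 7.02 CPM over CTRL and 14.7 ± 2.72 CPM over OPA1_LKO (log2 fold change -0.99 ± 0.21, adjusted p 0.0233, edgeR). Its call was lost without CTRL replicate 5 or any 1 of the OPA1_LKO libraries (adjusted p 0.0522 to 0.109, edgeR), and in the limma fits of log2(TPM + 1), log2(TPM + 0.1) and log2(TPM + 1) with no filter (0.0867, 0.0855 and 0.136). Without CTRL replicate 1 the list had 3 lower. Foxo1 (log2 fold change 0.26), Atf4 (0.34) and Hif1a (-0.42) were not called at the level of their RNA.

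Other genes that insulin represses through FOXO factors, as it does Igfbp1, had 3 of 14 called higher and 0 lower, with a median of 0.35, and 5 higher in DESeq2. They were Pck1, the rate-limiting enzyme of gluconeogenesis (1075 ± 215 to 2226 ± 489 CPM, log2 fold change 1.05 ± 0.22), Pdk4, a kinase that holds back pyruvate oxidation (6.54 ± 2.53 to 17.2 ± 1.84 CPM, 1.39 ± 0.27), and Txnip, an inhibitor of glucose uptake (79.8 ± 15.5 to 144 ± 20.1 CPM, 0.85 ± 0.17). The edgeR calls were lost for Pck1 without CTRL replicate 2 or OPA1_LKO replicate 2 or 3 (adjusted p 0.0585 to 0.0974). They were lost for Pdk4 without OPA1_LKO replicate 1 or 3 (adjusted p 0.0899 and 0.0570, edgeR) and in limma on log2(TPM + 1) with no filter (0.0871), and for Txnip without CTRL replicate 2 or 5 or any 1 of the OPA1_LKO libraries (0.0531 to 0.0876). The list then had 1 called without CTRL replicate 2 or OPA1_LKO replicate 1 or 2, and 0 without OPA1_LKO replicate 3. G6pc, the phosphatase that releases glucose, had a log2 fold change of 0.84 ± 0.28 with an adjusted p of 0.104 (edgeR). ATF4 targets, a second group of genes that amino acid shortage raises, had 10 of 20 tested called higher and 0 lower, with a median of 1.51. DESeq2, which also tested genes below the filter, called 12 higher and 1 lower of 22. In edgeR 6 were called without OPA1_LKO replicate 1. Asns, the asparagine synthetase, had a log2 fold change of 4.61, Trib3 2.84 and Fgf21, a fasting hormone, 2.84, while Chac1 (0.00) and Gdf15 (-0.13) were not called.

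The genes whose profiles over the 8 libraries were most like each member were found by the root mean square difference of log2 CPM, each gene centred on its own mean, among 12652 genes that averaged 1 CPM or more. For Igfbp1 they were Spp1 (0.57), Gm29779 (0.58) and Cyp4a31 (0.62), beside a median of 1.88 over all genes. Spp1, an extracellular matrix cytokine, averaged 22.7 ± 7.36 CPM over CTRL and 154 ± 28.5 CPM over OPA1_LKO. For Igfbp2 they were Lepr (0.51), the leptin receptor, Dcdc2a (0.53) and Got1 (0.54), beside a median of 1.20. Lepr was at 1.33 ± 0.348 and 7.48 ± 1.08 CPM. For Igfbp7, Ltbp4 (0.12), a matrix protein that binds latent TGF-beta, and Cygb (0.14), the globin of stellate cells, led. The median there was 0.68. The measure grows with how much a profile varies, so it is not compared between members. The root mean square of the centred profile itself was 1.85 for Igfbp1, 1.16 for Igfbp2, 0.60 for Igfbp7 and 0.19 for Igfbp4. Igfbp3 was nearest to Tnxb (0.19), Galnt15 (0.20) and Fam102b (0.21), and Igfbp4 to Ptprk (0.05), Serpinf1 (0.05) and Notum (0.08). Igfbp5 was nearest to Nr0b2 (0.38), and Igfbp6 to Hspa1b (0.38) and then to Igfbp5 (0.52), the 1 case in which a member was among the 3 nearest of another. All 8 libraries enter each measure, so a shared difference between the groups counts towards likeness.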

How the data were processed

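Per the labels' protocols, total RNA was purified from liver on columns and made into stranded libraries of polyadenylated RNA. Build mm10 and the tools RSEM, STAR, MultiQC and StringTie (no versions) come from the submitters' processing notes, and the sources used here do not give the annotation release. The authors deposited RSEM expected counts, which are not normalised, and TPM, scaled per library and corrected for length, both per gene and per transcript.

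Expected counts were rounded to whole numbers and filtered with filterByExpr (count minimum 10 in a typical library, 15 in total). The 14036 genes left were scaled by TMM and compared between groups, with no other term, by edgeR's quasi-likelihood F test (edgeR 4.0.16, R 4.3.3). Adjusted p-values (Benjamini-Hochberg over all 14036 genes) under 0.05 were called. The SE is the size of the log2 fold change over the root of F. CPM uses TMM-scaled library sizes, and log2 CPM a prior count of 2. Alternatives used DESeq2 1.42.0, limma 3.58.1 (voom, and log2 TPM with a pseudocount of 1 or 0.1), other scalings, no filter, the replicate number as a block, and each library left out. In the block fit CTRL replicates 4 and 5 have no OPA1_LKO library of the same number and do not inform the group difference.

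The procedure was tested on simulated counts. The members and the 14 gene lists (173 entries, all matched, 6 by an older symbol) were chosen with earlier results of these data known. Named are the 7 members, Opa1, the ligand list, the members of the other lists that were called or had the smallest p, and the 3 nearest profiles of each member. Not every gene the rule allows is named. Apoe, Polr2b, Acta2, Krt19, Epcam, Cldn7, Cftr, Socs2, Chac1, Gdf15, Foxo1, Atf4, Hif1a and the genes below the filter were named outside the rule with their values seen. Promoter sequences are from RefSeq (GRCm38.p6).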

Additional observations from a re-analysis of the deposited data

Results flagged for a closer look

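Among 63 sets of CTRL values checked (genes, marker sums and IGFBP sums and shares), 4 had a library far from the others. Chance gives about 1 in 20, so this number was near that rate. All 4 were in CTRL replicate 1. Apoe was at 133.8 CPM there against 25200.4 to 33180 CPM in the other CTRL libraries, a gap of 0.759 of the range. The summed Kupffer cell and macrophage markers were at 904.3 CPM against 178.1 to 374.1 CPM (0.730), and the summed mesothelial markers at 453.3 CPM against 257.1 to 299.9 CPM (0.782). Krt8 alone made up nearly all of the mesothelial sum, at 440.3 CPM in CTRL replicate 1 and 254.3 to 290.3 CPM in the other CTRL libraries. That flag therefore describes Krt8 rather than the list as a whole. Mmp7 was at 0.212 CPM, from 4 counts, against 0 to 0.0573 CPM (0.730). The limit for 5 libraries is 0.71. Other CTRL libraries also stood apart in genes outside these sets. Krt19 was at 22.3 CPM in CTRL replicate 3 against 0.319 to 1.03 CPM in the other CTRL libraries. Epcam was at 16.8 CPM in CTRL replicate 3 against 0.506 to 0.892 CPM, and Cldn7 and Cftr were also far higher in that library.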

How the results depend on the processing

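Igfbp1 was called in all 17 alternatives. The number of IGFBP genes called was 2 with the replicate block and 1 to 3 when single libraries were left out. It was 1 without CTRL replicate 2 or 5 or any OPA1_LKO library, 3 without CTRL replicate 1, and 3 in DESeq2. All genes changed numbered 846, of which 469 were higher and 377 lower. They numbered 1605 in DESeq2, 333 on log2(TPM + 1) (259 higher, 74 lower), 318 on log2(TPM + 0.1), 418 on log2(TPM + 1) without a filter, 367 with the replicate block, and 198 (without OPA1_LKO replicate 1) to 1701 (without CTRL replicate 1) when single libraries were left out. Upper-quartile factors gave 547 higher and 270 lower, and no filter gave 623 in all. On the TPM scales the median of all genes lay at 0.09 (log2(TPM + 1)) and 0.11 (log2(TPM + 0.1)), against -0.03.

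Some values near 0 turned. Igfbp4 ranged from -0.067 to 0.158 and Igf1 from -0.021 to 0.171 when single libraries were left out. Igfbp6 was -0.44 in voom, -0.036 on log2(TPM + 1) with and without the filter, -0.29 on log2(TPM + 0.1), -0.11 with the replicate block and -1.78 to 0.56 with libraries left out. The share difference of Igfbp2 transcripts ranged from -1.95 to 7.43 percentage points for NM_001310659.1 and from -7.43 to 1.95 for NM_008342.3. These causes were not tested.

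With the replicate block the proteases had 2 called higher and the IGFBP-type relatives 0, with adjusted p of 0.108 for Htra3, 0.0920 for Ctgf, 0.209 for Mmp2, 0.0824 for Txnip, 0.0864 for Eln and 0.0752 for Sox9 (edgeR, Benjamini-Hochberg). Same-numbered OPA1_LKO and CTRL samples correlated by 0.072, 0.054 and 0.175 in their deviations from group means. For OPA1_LKO replicates 1 and 3 the CTRL library of the same number correlated best. OPA1_LKO replicate 2 correlated best with CTRL replicate 5 (0.174). The labels name no pairs, so the main fit did not take the numbers as pairs, and these correlations do not settle whether they are.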
